A study of Mus musculus with 16 samples.

Results

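The average effect of the CAR ligand MI763F on liver gene expression was estimated over mice with and without ethinylestradiol (EE), an estrogen used to bring on cholestasis. All 16 libraries of the series entered the estimate: 8 from mice given the ligand were set against 8 from mice not given it, with EE status as a covariate, for every measured gene. The animals are labelled Humanized PXR-CAR-CYP3A4/3A7, so all 4 groups share that genotype, and the labels give no strain, age, sex or pregnancy status. CV (n = 4) received propylene glycol, the vehicle of EE. CM (n = 4) are controls gavaged with MI763F at 2.5 mg/kg on 6 days, beginning on day 2. EV (n = 4) had EE injected under the skin at 10 mg/kg over 7 days. EM (n = 4) had both treatments at those doses. Whether CV and EV mice were gavaged with the oil-based carrier of MI763F is not stated, so the ligand and its carrier cannot be told apart. The labels also name a higher dose of the ligand, not analysed here. No label ties a library to an animal of its own, so the p-values describe the spread between these libraries, which may be technical. The comparison estimates the ligand change averaged over mice with and without EE, which need not be alike in both.

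CAR (constitutive androstane receptor) is a nuclear receptor of hepatocytes. When activated it moves into the nucleus, pairs with RXR and binds DNA elements upstream of genes for drug and steroid handling. Its known targets run in stages: phase I enzymes such as Cyp2b10 and the Cyp2c family oxidise a substrate, phase II enzymes attach glucuronate, sulfate or glutathione, and exporters remove the product. PXR, a related receptor, shares many of these targets and is best known for CYP3A genes. Both are studied in cholestasis because their targets include enzymes that make bile acids and bilirubin more soluble.

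Library totals ran from 14115384 to 21473227 estimated counts, and the filter on low counts kept 12918 of 13006 genes. EE status dominated the table: its coefficient passed the test for 7308 genes (56.6%), with a median absolute log2 change of 0.389 against 0.107 for the ligand. The first principal component held 48.3% of the variance and separated EE status. Along the second component (6.17%) the CM libraries lay between -58.9 and -7.98, below the CV libraries, and CM replicate 2 lay farthest out. On the first component EM replicate 1, at 62.6, was the EM library closest to EV, and the rest of EM ranged from 37.1 to 46.7. Results are therefore also given without CM replicate 2 and EM replicate 1, a choice made after the data were seen. EM replicate 1 was picked for lying nearest EV, so leaving it out can by itself enlarge the ligand change with EE. Counts under this choice are thus no independent check. Of 10 hepatocyte markers 9 were among the tested genes. Their sums ran from 112700 to 142500 CPM (read counts scaled to library size) in CV, 109300 to 137600 in CM, 37050 to 45530 in EV and 42310 to 62740 in EM, and overlapped in both EE states. With EE 9 of 9 were above 0 for the ligand (median log2 fold change 0.41), and without EE 3 of 9 (median -0.11). Of the marker lists for other cells, no member passed the test for the ligand. Macrophage marker sums overlapped between CV (385.0 to 992 CPM) and CM (399 to 813) and between EV (2334 to 2730.0) and EM (1912 to 3209). Lymphocyte and neutrophil markers summed to 146 to 185 CPM in CV and 189 to 341 in CM, and to 347 to 577 in EV and 275 to 472 in EM, so they overlapped with EE only. Cholangiocyte markers likewise summed to 48.0 to 62.7 CPM in CV and 63.0 to 88.7 in CM, and to 137 to 203 in EV and 89.7 to 194 in EM. The part of such cells in the results was not tested. No adipocyte marker of 5 was among the tested genes, and 2 of 10 pancreatic acinar markers were.

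Averaged over EE status, 6 entries of the table were higher with the ligand, all of them cytochrome P450 entries, and none was lower. They are Cyp2b10, Cyp2c29, Cyp2c50, Cyp3a16, Cyp3a63-ps and ENSG00000160868, 1 of 3 entries with human-format identifiers that the name table does not pair with symbols. They make up 0.0464% of the genes tested (quasi-likelihood test of edgeR, Benjamini-Hochberg adjusted over all genes; 0% for falls). An unadjusted p under 0.05 was found for 9.22% of genes, 747 higher (5.78%) and 444 lower (3.44%). All 6 had a log2 fold change above 1, and all 6 had a negative EE coefficient, from -2.78 for Cyp2c50 to -0.72 for Cyp2c29. In bulk liver, fewer cells of a type and less RNA per cell cannot be told apart. With library totals in place of composition factors the call of Cyp2c29 was lost, and the unadjusted split became 402 higher and 942 lower, because the median of all genes then moved to -0.05. DESeq2 called 129 genes higher and 22 lower. Without CM replicate 2 and EM replicate 1 the same 6 entries passed, among 20 genes higher and 3 lower.

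Cyp2b10, the classical CAR target, showed the clearest rise. It stood at 249.8, 339, 339 and 274 CPM in the CV libraries and at 764, 1691, 919.8 and 808 CPM in CM. In the EV libraries it was at 57.6, 112, 114 and 77 CPM, and in EM at 294, 260.0, 256 and 324 CPM. Every ligand library was above every library without ligand of the same EE status. The EM mean of 284 ± 32 CPM (SD, n = 4) and the CV mean of 301 ± 45.6 CPM differed by less than either SD. The averaged change was 3.31-fold (log2 fold change 1.73 ± 0.177 SE, adjusted p = 0.000531). It was nearly equal in both EE states, 1.80 ± 0.257 without EE and 1.66 ± 0.256 with EE (interaction -0.14 ± 0.353 SE, adjusted p = 0.897). Leaving out CM replicate 2 and EM replicate 1 gave 1.55 (adjusted p = 0.000481).

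Of the Cyp2c family, which oxidises arachidonic acid and many drugs, Cyp2c29 and Cyp2c50 passed the test. Cyp2c29 was at 3063, 4397, 4177 and 3658 CPM in CV and at 7796, 15506, 9892 and 8536 CPM in CM. With EE it was at 3047, 2816, 3204 and 3202 CPM in EV and at 4003, 3987, 5274 and 5977 CPM in EM. The ligand groups did not overlap those without it in either EE state (log2 fold change 1.05 ± 0.172 SE, adjusted p = 0.037), and the fitted change was 1.45 ± 0.200 without EE and 0.65 ± 0.197 with EE. Cyp2c50 leaned the other way. It was at 402, 575.1, 761 and 523 CPM in CV and at 1031, 886, 1288 and 966 CPM in CM, and fell with EE to 49.2, 55.6, 73.1 and 45.4 CPM in EV. In EM it was at 320.3, 118, 203 and 249 CPM, above all EV and below all CV libraries. The averaged change was 2.71-fold (log2 fold change 1.44 ± 0.236 SE, adjusted p = 0.037), with 0.88 ± 0.261 without EE and 2.00 ± 0.27 with EE. Neither interaction passed (adjusted p = 0.208 for Cyp2c29 and 0.185 for Cyp2c50). Members of the Cyp2b and Cyp2c families resemble each other closely, and how reads were divided among them is uncertain.

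The remaining 3 calls are CYP3A entries. ENSG00000160868 was at 749.6, 2089, 1127 and 1002 CPM in CV and at 1950.5, 4363, 3381 and 2959 CPM in CM. With EE it was at 550.0, 549.9, 753 and 261 CPM in EV and at 1319, 2002, 2173 and 2106 CPM in EM. The groups overlapped without EE, where CV replicate 2 lay above CM replicate 1, and were apart with EE (log2 fold change 1.60 ± 0.25 SE, adjusted p = 0.0327). Cyp3a63-ps, annotated as a pseudogene, rose from 53.4 ± 24.8 to 133 ± 36.9 CPM without EE and from 22.3 ± 7.68 to 82.4 ± 17.9 CPM with EE (log2 fold change 1.60 ± 0.236 SE, adjusted p = 0.0258; n = 4, SD). Cyp3a16 is a mouse Cyp3a gene with a low level here, between 0.473 and 7.64 CPM over all libraries, and its groups were apart in both EE states (log2 fold change 1.87 ± 0.282 SE, adjusted p = 0.0258).

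These 3 entries moved almost as 1 measurement. Cyp3a63-ps held 4.01% to 4.87% of the CPM of ENSG00000160868 in all 16 libraries, a 1.21-fold span, while the human-format entry itself spanned 16.7-fold. Cyp3a16 held 0.129% to 0.268% of it, a 2.07-fold span. Cyp3a13, another mouse Cyp3a gene, ranged from 3.69% to 27.8%, a 7.53-fold span. CYP3A sequences are close to each other and the mice carry human CYP3A genes, so reads of 1 gene can be assigned to another. Whether that happened was not tested, and the 3 calls are not counted here as independent genes.

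**Figure D1:**
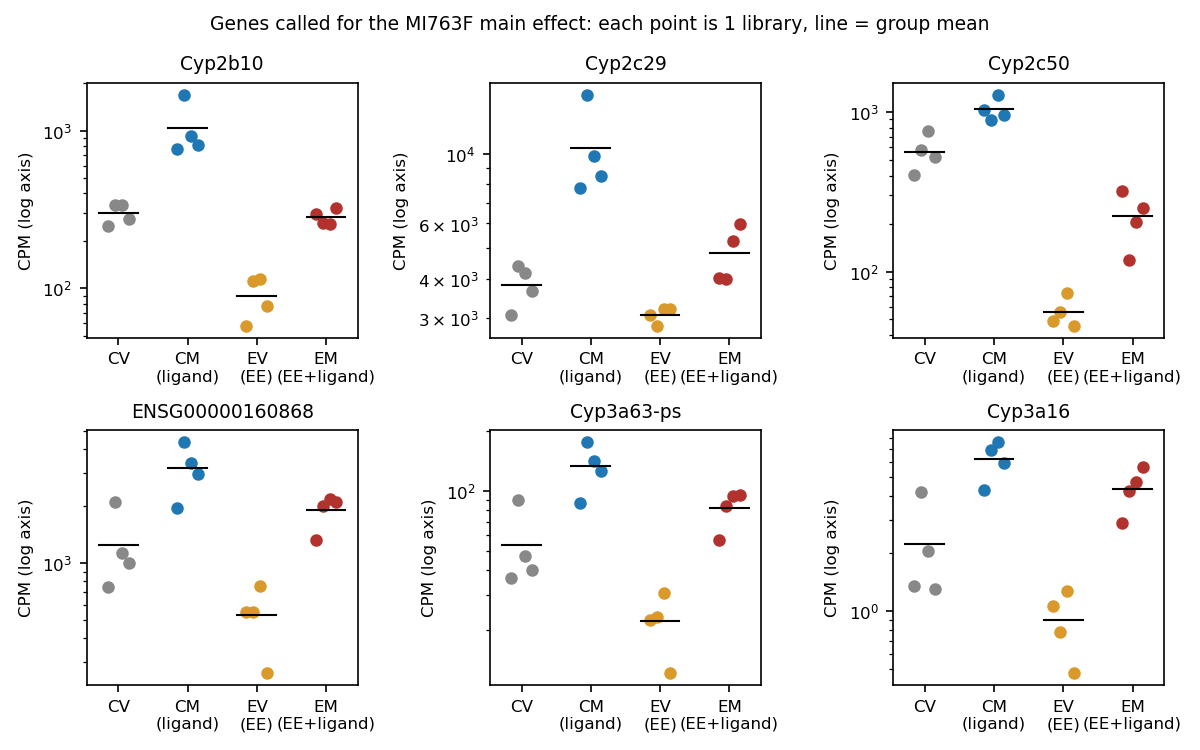
Expression of the 6 entries that passed the test for the averaged ligand effect, in CPM on a log axis, with 1 point per library and a line at the mean of each group of 4. In each panel the CM mean lies above the CV mean and the EM mean above the EV mean, and for Cyp2b10 no ligand library overlaps its counterpart group.

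**Figure D2:**
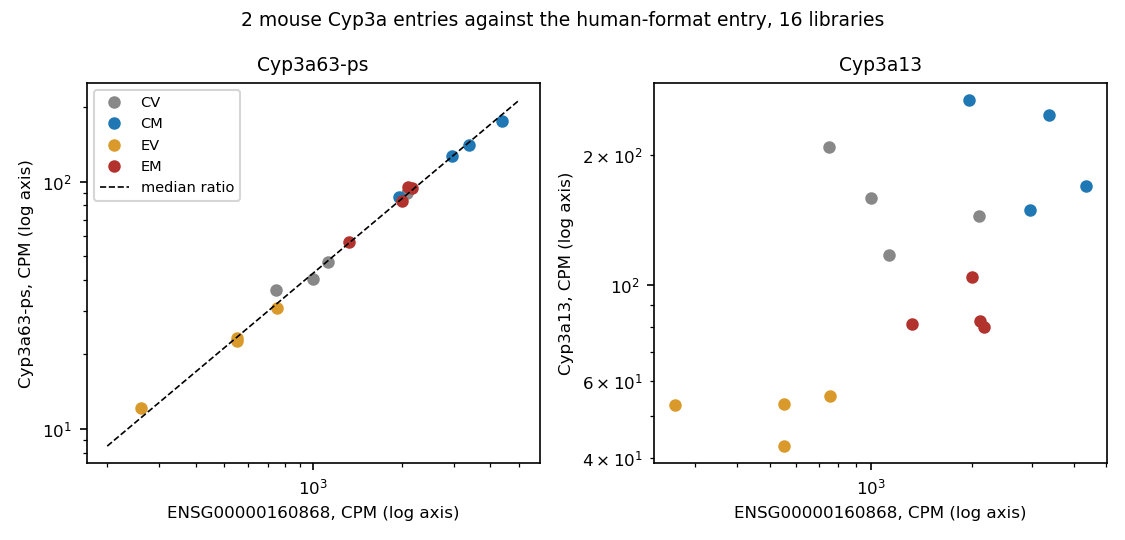
Cyp3a63-ps (left) and Cyp3a13 (right) against ENSG00000160868, in CPM on log axes, for the 16 libraries coloured by group. On the left all points lie along the dashed line of the median ratio (4.26%), with a 1.21-fold span of the ratio, and on the right the ratio spans 7.53-fold.

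The 6 calls differed in how far they rested on single libraries. Cyp2b10 passed with each of the 16 libraries left out in turn (highest adjusted p = 0.00314). Cyp3a16 and Cyp3a63-ps passed in 9 of 16 cases, ENSG00000160868 in 7, and Cyp2c29 and Cyp2c50 in 6 each. Cyp2b10 alone was left without CV replicate 1 or 4, CM replicate 3, EV replicate 1 or 2, or EM replicate 3 or 4. Without CM replicate 2 or without EM replicate 1 there were 11 genes higher, all 6 entries among them. The log2 fold changes moved little. That of Cyp2c29 stayed between 0.90 and 1.12, that of Cyp2c50 between 1.30 and 1.56, and that of ENSG00000160868 between 1.47 and 1.79. In fits of 1 EE state alone, with 8 libraries each, 0 of the 6 entries passed without EE, Cyp2b10 included. With EE 5 of the 6 passed.

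**Figure D3:**
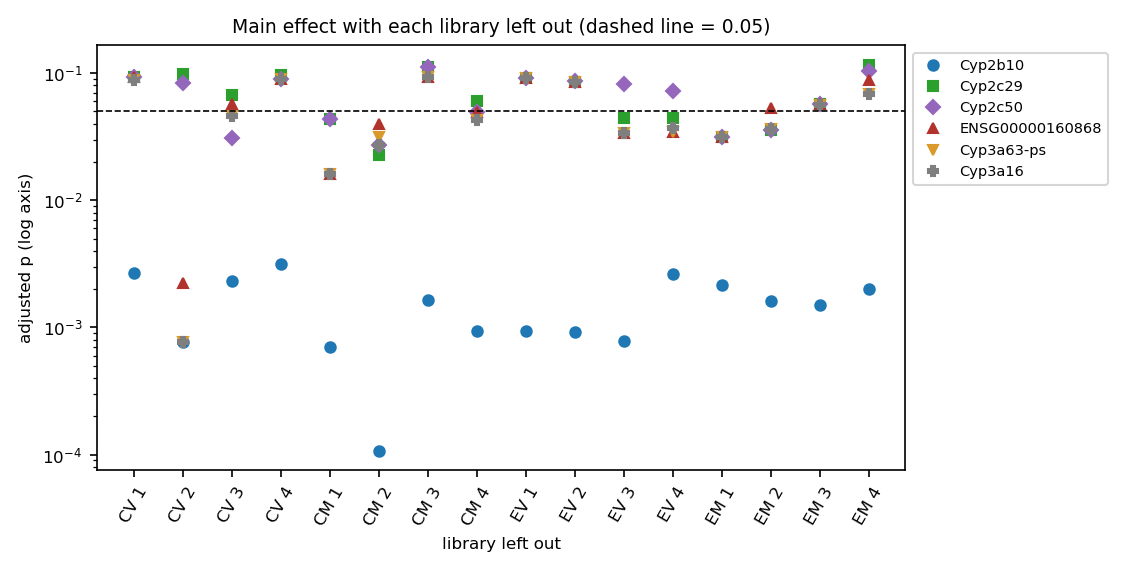
Adjusted p (log axis) of the 6 entries with each library left out of the additive fit, and a dashed line at the threshold of 0.05. Cyp2b10 stays at or below 0.00314 throughout, while the other 5 cross the line depending on the library, with highest values between 0.0926 and 0.116.

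The DNA just upstream of the called genes is shown because these genes passed the same test and CAR and PXR act through upstream elements. Whether the reads of Cyp3a16 belong to that gene was not tested, as given above. RefSeq start sites on GRCm38.p6, an earlier build than that of the count table, were found for 4 of the 6 entries. The 250 bases before each start are given 5′ to 3′ on the gene's strand, with capitals for any match to the receptor motifs AGGTCA or AGTTCA on either strand.
Cyp2b10, chr7:25897408-25897657, plus strand: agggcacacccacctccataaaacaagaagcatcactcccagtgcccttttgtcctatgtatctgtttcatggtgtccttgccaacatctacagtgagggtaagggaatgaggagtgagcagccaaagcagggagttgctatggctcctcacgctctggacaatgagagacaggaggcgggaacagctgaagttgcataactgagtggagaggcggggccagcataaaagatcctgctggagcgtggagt
Cyp2c29, chr19:39286835-39287084, plus strand: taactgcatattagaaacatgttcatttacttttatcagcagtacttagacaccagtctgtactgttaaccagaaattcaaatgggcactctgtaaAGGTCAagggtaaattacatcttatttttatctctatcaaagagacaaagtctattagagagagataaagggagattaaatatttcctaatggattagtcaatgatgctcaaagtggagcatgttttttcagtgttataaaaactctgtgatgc
Cyp2c50, chr19:40089429-40089678, plus strand: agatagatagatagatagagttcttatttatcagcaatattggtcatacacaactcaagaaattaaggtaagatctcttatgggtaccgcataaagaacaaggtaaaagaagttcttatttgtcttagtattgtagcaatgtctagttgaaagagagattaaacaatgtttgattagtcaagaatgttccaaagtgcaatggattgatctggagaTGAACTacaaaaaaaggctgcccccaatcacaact
Cyp3a16, chr5:145469724-145469973, minus strand: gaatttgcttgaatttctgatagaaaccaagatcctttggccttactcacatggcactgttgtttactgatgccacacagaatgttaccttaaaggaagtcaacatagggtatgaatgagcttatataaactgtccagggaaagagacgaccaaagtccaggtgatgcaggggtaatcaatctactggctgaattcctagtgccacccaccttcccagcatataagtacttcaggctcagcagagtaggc
Cyp2c29 holds 1 AGGTCA whose first base lies 154 bases before the start, and Cyp2c50 holds 1 AGTTCA on the reverse strand at 35 bases before the start. The windows of Cyp2b10 and Cyp3a16 hold neither. Among 32851 windows of the same length over all genes, 14% hold AGGTCA and 11.8% hold AGTTCA, so such matches are common. The direct repeats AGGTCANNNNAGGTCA (0.0152% of windows) and AGTTCANNNNAGTTCA (0.00913%) are in none of the 4 windows. Enhancers farther upstream are outside these windows.

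Phase I genes were above 0 more often than not. Of 27 measured phase I and cofactor genes of CAR and PXR, 4 passed and 16 were higher at an unadjusted p under 0.05 (background 5.78%), none lower. This and the following lists were chosen with earlier results of these data known, so counts beside the background are descriptive. The median log2 fold change was 0.44, against 0.001 over all genes, with medians of 0.34 without EE and 0.70 with EE. Among the 23 that did not pass, 21 were above 0 and 12 had an unadjusted p under 0.05, with a median of 0.38 (0.22 without EE, 0.70 with EE). Hepatocyte markers also had a higher median with EE, as given above, and their part in this and the following lists was not tested. Cyp2c37 was at 669, 1083, 1151 and 831 CPM in CV and at 1024, 1456, 1756 and 1440.4 CPM in CM, and in EV at 47.5, 52.2, 79 and 66.6 CPM. EM libraries were at 288, 194, 244 and 341 CPM, apart from EV, and the averaged change did not pass (log2 fold change 1.36 ± 0.257 SE, adjusted p = 0.0695). Cyp2c55, of the same family, went from 19.9 ± 8.98 to 96.3 ± 80.6 CPM without EE, where CM replicate 2 alone reached 213 CPM (1.49, adjusted p = 0.285, or 0.92 without CM replicate 2 and EM replicate 1). Cyp2c54 was at 1.37, adjusted p = 0.225. Cyp2b9, a female-predominant relative of Cyp2b10, gave -0.12 and 2.84 without and with EE (averaged 1.23, adjusted p = 0.489). Akr1b7, an aldo-keto reductase, was at 1.39, adjusted p = 0.171, and the electron donor Por at 0.25, adjusted p = 0.394. Cyb5a, which passes electrons to P450 enzymes, had ligand groups above the others in both EE states (0.37, adjusted p = 0.104). Retinal dehydrogenases gave small values: 0.36, adjusted p = 0.514 for Aldh1a1 and 0.43, adjusted p = 0.233 for Aldh1a7.

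No phase II gene passed for the averaged effect. At an unadjusted p under 0.05, 15 of 27 measured members were higher and none lower (5.78% and 3.44% of all genes). Of the 27, 3 passed for the interaction, so their averaged change does not describe both EE states. Members with closely related sequences, such as the Sult2a genes, may not be separate measurements. The median log2 fold change was 0.45 (0.31 without EE, 0.58 with EE). Ugt1a1, which conjugates bilirubin, was at 145, 171, 168 and 158 CPM in EV and at 213, 412, 430.4 and 368 CPM in EM, but hardly differed without EE (738 ± 50.6 CPM in CV, 791 ± 94.3 in CM). Its averaged change was 0.62, adjusted p = 0.254, and the interaction did not pass (adjusted p = 0.0737). Ugt1a9, spliced from the same locus and sharing its last exons, was at 1.00, adjusted p = 0.219. Glutathione transferases gave 0.52, adjusted p = 0.315 for Gstm1, 1.02, adjusted p = 0.286 for Gstm3 and 1.94, adjusted p = 0.379 for Gsta1. For Gsta1 the change was 3.38 and 0.69 without and with EE, and the CV libraries lay between 0 and 4.54 CPM, so that value is approximate. In the CM group both Gstm3 (1395 CPM) and Gsta1 (48.3 CPM) were highest in CM replicate 2.

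Carboxylesterases, which hydrolyse ester drugs and lipids, showed the largest median of the drug metabolism lists at 0.55. All 11 measured members were above 0 for the averaged effect, 7 of them at an unadjusted p under 0.05 (5.78% of all genes). None passed the adjusted test. Their medians were 0.19 without EE and 1.19 with EE, beside -0.11 and 0.41 for hepatocyte markers. Ces2a came nearest: 696 ± 120.4 CPM in CV, 923 ± 105 in CM, 172 ± 15.4 in EV and 280.0 ± 50.4 in EM (log2 fold change 0.55 ± 0.107 SE, adjusted p = 0.0695). Of 8 transporters, 2 were higher at an unadjusted p under 0.05 (5.78% of all genes). They were the exporter Abcc4 (0.76, adjusted p = 0.273) and the basolateral exporter Abcc3 (0.18, adjusted p = 0.511). The median of the transporters was 0.16. Receptors and cofactors stayed near 0, with a median of 0.02 over 16 genes that became -0.04 with library totals, and the coactivator Ppargc1a was the 1 member with an unadjusted p under 0.05 (0.44, adjusted p = 0.524). The other 2 human-format entries did not pass. ENSG00000143257 was at 214 ± 30.9 CPM in CV and 204 ± 58.2 in CM, and at 67.6 ± 7.43 in EV and 84.5 ± 19.2 in EM (0.13, adjusted p = 0.848, or 0.29 without CM replicate 2 and EM replicate 1). ENSG00000144852 stayed between 45.6 and 73 CPM in all libraries (0.07, adjusted p = 0.794).

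An averaged effect describes a gene only where the change is alike in both EE states. The difference between the change with EE and that without it passed for 17 genes (0.132% of those tested), 13 with a more positive change under EE (0.101%) and 4 with a less positive one (0.031%). None of the 6 averaged calls was among them. The additive fit leaves an interaction in the residual spread, which works against a call, so this does not show that the 6 changes were alike. By the edgeR interaction test the unadjusted p was 0.0115 for Cyp2c29 and 0.00866 for Cyp2c50. An unadjusted p under 0.05 was found for 13.6% of genes, 1045 with a more and 714 with a less positive change (8.09% and 5.53%). Library totals turned that split from 59.4% more positive to 31.1%, because the median change with EE then moved to -0.11. DESeq2 gave 298 and 152 genes. Without CM replicate 2 and EM replicate 1 there were 124 and 33. The first count became 157 without EM replicate 1, 66 without CM replicate 4, 24 without EV replicate 3, 8 without EV replicate 1 or EM replicate 4 and 7 without EV replicate 2. The second became 51 without EM replicate 1, 29 without CM replicate 4, 11 without CM replicate 3, 10 without CV replicate 2, 9 without CV replicate 3 or EM replicate 2, 8 without CV replicate 4 and 2 without EV replicate 1 or EM replicate 4.

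Sulfotransferases of the Sult2a family, which sulfate bile acids and steroids, account for 5 of the 17. Sult2a5 was at 396, 403, 311 and 358 CPM in CV and at 362, 493, 489 and 413 CPM in CM, ranges that overlap. Among EE libraries it was at 7.75, 7.25, 9.12 and 8.35 CPM in EV and at 42.6, 74.6, 101 and 70.9 CPM in EM. The ligand change was 0.26 ± 0.19 without EE and 3.15 ± 0.212 with EE (interaction 2.89 ± 0.279 SE, adjusted p = 0.000414). Sult2a1 went from 20.9 ± 6.24 CPM in EV to 404 ± 215 in EM, still below every CV library (interaction 3.91 ± 0.578 SE, adjusted p = 0.0139). EM replicate 1 was the lowest of EM at 89.8 CPM against 445 to 559 in the others. Its averaged change of 2.30 exceeded that of Cyp2b10, yet did not pass in the additive fit (adjusted p = 0.291). The mean of both EE states in the fit with 4 groups was 2.32 and did pass (adjusted p = 0.0024). Sult2a2 (interaction 2.28 ± 0.322 SE, adjusted p = 0.00988), Sult2a4 (interaction 2.34 ± 0.382 SE, adjusted p = 0.0223) and Sult2a6 (interaction 2.63 ± 0.309 SE, adjusted p = 0.00188) followed the same course. These genes are near-identical neighbours, so their counts may not be separate measurements.

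The other 8 genes with a more positive change under EE include the carboxylesterases Ces1c and Ces1d. Ces1c changed by -0.01 and 1.19 without and with EE (interaction 1.20 ± 0.188 SE, adjusted p = 0.0179), and Ces1d by 0.32 and 1.94 (interaction 1.62 ± 0.27 SE, adjusted p = 0.0223). Slc22a26, an organic anion transporter family member, was at 0.696, 0.34, 0.845 and 0.525 CPM in EV and at 3.84, 10.5, 8.97 and 4.08 CPM in EM, and changed by 0.17 without EE (interaction 3.34 ± 0.487 SE, adjusted p = 0.0122). Prodh2, an enzyme of hydroxyproline breakdown, was at 28.9 ± 3.93 CPM in EV and 61.7 ± 10.1 in EM, against CV and CM means without EE of close value (261 ± 13.4 and 261 ± 18 CPM; interaction 1.09 ± 0.162 SE, adjusted p = 0.0122). Nlrp6, Ttc36, Gchfr and Fuom made up the rest.

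St5, which encodes a DENN domain protein, ran the opposite way. It was at 15.6, 13.1, 12.7 and 10 CPM in CV and at 27.6, 36.4, 35 and 34.1 CPM in CM. With EE it was at 26.1, 21.7, 24.8 and 27.3 CPM in EV and at 25.5, 22.4, 21 and 24.7 CPM in EM, ranges that overlap. The ligand change was 1.37 ± 0.13 without EE and -0.09 ± 0.126 with EE (interaction -1.46 ± 0.181 SE, adjusted p = 0.00248), so the averaged value of 0.63 describes neither state. Gm20075, a predicted gene, had 0 estimated counts in all CV libraries, 22, 61, 33 and 36 in CM, 72, 71, 38 and 44 in EV, and 24, 44, 29 and 11 in EM (interaction adjusted p = 0.00188). Myl12b and Ufm1 were the other two. St5, Prodh2, Sult2a2, Sult2a5 and Sult2a6 passed under all 25 settings tried for the interaction, and Sult2a1, Slc22a26, Ces1c and Gm20075 under 24. The other 8 lost the call more often: Myl12b passed under 22, Ces1d and Sult2a4 under 20, Nlrp6 under 19, Ttc36 and Gchfr under 18, Ufm1 under 12 and Fuom under 11. With 1 library left out, Sult2a4 lost its call without CM replicate 1, EV replicate 1 or EM replicate 3 or 4 (highest adjusted p = 0.0661). Ces1d lost it without CM replicate 1, EV replicate 1 or 2, or EM replicate 3 or 4 (highest adjusted p = 0.085). Ces1c lost it without EV replicate 2 (adjusted p = 0.0553). Fuom kept its call in 4 of 16 such cases and Ufm1 in 5.

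**Figure D4:**
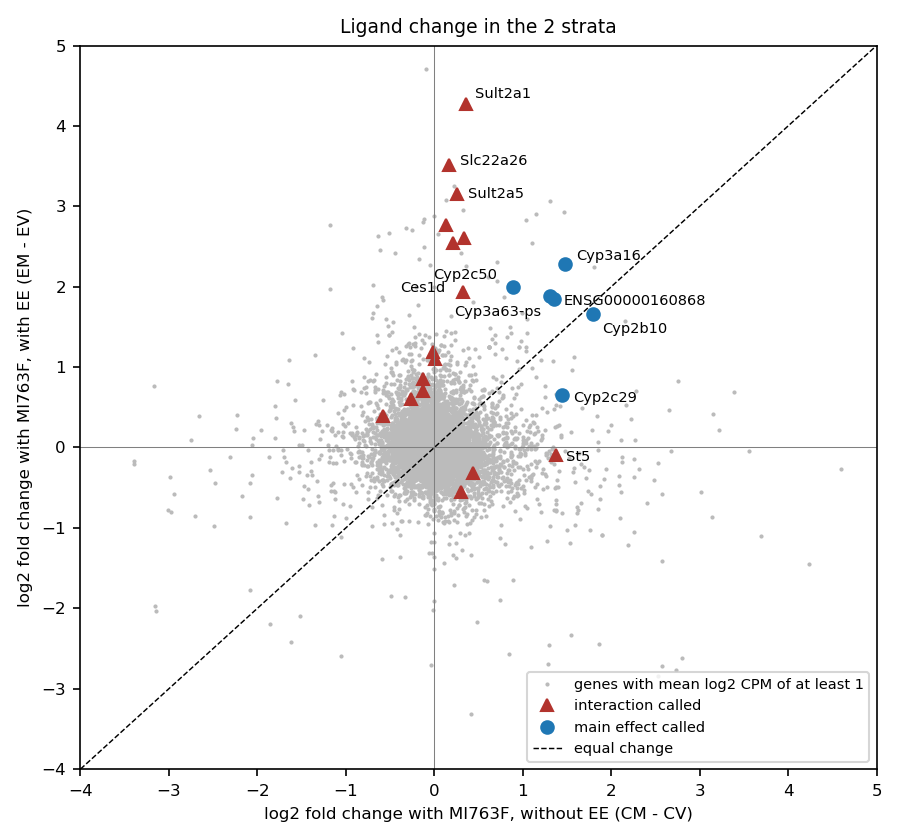
Log2 fold change with MI763F without EE (horizontal axis) and with EE (vertical axis) for 11687 genes whose mean log2 CPM was 1 or more, of which 45 lie beyond the axes. The 6 averaged calls (circles) are above 0 on both axes, with Cyp2b10 at 1.80 and 1.66 near the line of equal change, while Sult2a1 lies at 0.36 and 4.27 and St5 at 1.37 and -0.09.

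The genes that changed under EE were also read in the libraries without EE, which share no sample with them. In a fit of EV and EM alone, 181 genes were higher with the ligand and 47 lower. Without EE, 70 of the 181 (38.7%) had the same sign, against 50% of all genes, and their median was -0.05. Of the 181, 11 had an unadjusted p under 0.05 in the same direction, against 4.15% of all genes, and 0 passed. Of the 47, 36 were measured without EE and 12 (33.3%) had the same sign. In a fit of CV and CM alone, 1 gene was higher and 1 lower, with 517 and 356 at an unadjusted p under 0.05.

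Several gene groups outside drug metabolism had unlike medians in the 2 EE states, a difference of medians that was not tested. Cholesterol synthesis and uptake genes had a median of -0.12 without EE and 0.62 with EE (averaged 0.23), and 0 of 24 passed. Proliferation genes had 0.58 without EE and -0.49 with EE (averaged -0.07, 0 of 21 passed). Immediate early genes, which respond within minutes to growth factors or handling, had 1.01 without EE and 0.15 with EE. For the averaged effect 8 of 19 were higher at an unadjusted p under 0.05 (5.78% of all genes). Among them Fos was at 6.55, 2.14, 6.39 and 6.54 CPM in CV and at 17.3, 67.9, 53.7 and 7.94 CPM in CM (1.75, adjusted p = 0.33), and Jun at 1.09, adjusted p = 0.282. Pericentral genes had -0.15 and 0.60, and NRF2 and glutathione genes 0.44 and -0.09. None of the 24 cholesterol, 21 proliferation, 19 immediate early, 15 pericentral and 13 NRF2 genes passed for the averaged effect or for the interaction. With library totals these medians kept their signs in both EE states, but with EE that of the immediate early genes moved to 0.05 and that of the NRF2 genes to -0.20, beside -0.11 for all genes. Without CM replicate 2 and EM replicate 1 the averaged median of the cholesterol genes was 0.43, and that of the proliferation genes -0.31. Of the cholesterol genes, 17 of 24 were then higher at an unadjusted p under 0.05 in place of 0. Over all genes 1018 were then higher and 731 lower at that p, in place of 747 and 444. Pericentral genes higher at that p then numbered 6 in place of 1, and immediate early genes 5. The averaged median of the NRF2 genes went from 0.18 to 0.07. Hepatocyte markers, at -0.11 without EE and 0.41 with EE, had the same signs as the cholesterol and pericentral genes, and their part was not tested.

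Bile acid synthesis genes did not pass either. Of 17 measured, 7 were higher at an unadjusted p under 0.05 (5.78% of all genes) and 0 passed. The medians were 0.003 without EE and 0.36 with EE. Cyp7a1, the rate-limiting enzyme, was at 76.7, 60.4, 46.3 and 66.2 CPM in CV and at 14.7, 6.99, 30.2 and 58.2 CPM in CM. Under EE it stood at 1.62, 5.98, 14.1 and 1.16 CPM in EV and at 13, 12.7, 36 and 26.2 CPM in EM. The ranges overlapped in both EE states, and the changes of -1.18 and 1.97 had opposite signs (0.33, adjusted p = 0.932; interaction 3.14 ± 1.03 SE, adjusted p = 0.187). Without CM replicate 2 and EM replicate 1 its averaged change was 0.68 (adjusted p = 0.73). Cyp8b1, needed for cholic acid, was at 1.09, adjusted p = 0.485, Cyp39a1 at 0.92, adjusted p = 0.432 and Cyp7b1, an oxysterol hydroxylase, at -0.17, adjusted p = 0.791. Without and with EE, Cyp8b1 changed by 0.35 and 2.25, Cyp39a1 by -0.006 and 2.00, and Cyp7b1 by 0.31 and -0.62. Under EE the ligand libraries lay above the others for Cyp8b1 and Cyp39a1 and below them for Cyp7b1. None of these interactions passed (adjusted p = 0.333, 0.077 and 0.077). The uptake carrier Slc10a1 gave -0.16 and 0.67 without and with EE (0.26, adjusted p = 0.668, or 0.41 without CM replicate 2 and EM replicate 1). Fatty acid oxidation and PPARA target genes had medians of 0.32 without EE and 0.11 with EE, the latter 0.006 with library totals. Of 32, 10 were higher at an unadjusted p under 0.05 (5.78% of all genes), including the omega hydroxylases Cyp4a10 (0.76, adjusted p = 0.235) and Cyp4a14 (0.70, adjusted p = 0.273). Of sex-biased genes, 7 of 25 female-predominant members were higher and 1 lower at an unadjusted p under 0.05 (5.78% and 3.44% of all genes). Cyp3a16 was the 1 that passed, and whether its reads belong to another CYP3A entry was not tested. Of 21 male-predominant members 1 was higher and 1 lower. Without CM replicate 2 and EM replicate 1, 6 of them were lower, where 731 of all genes were lower in place of 444.

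**Figure D5:**
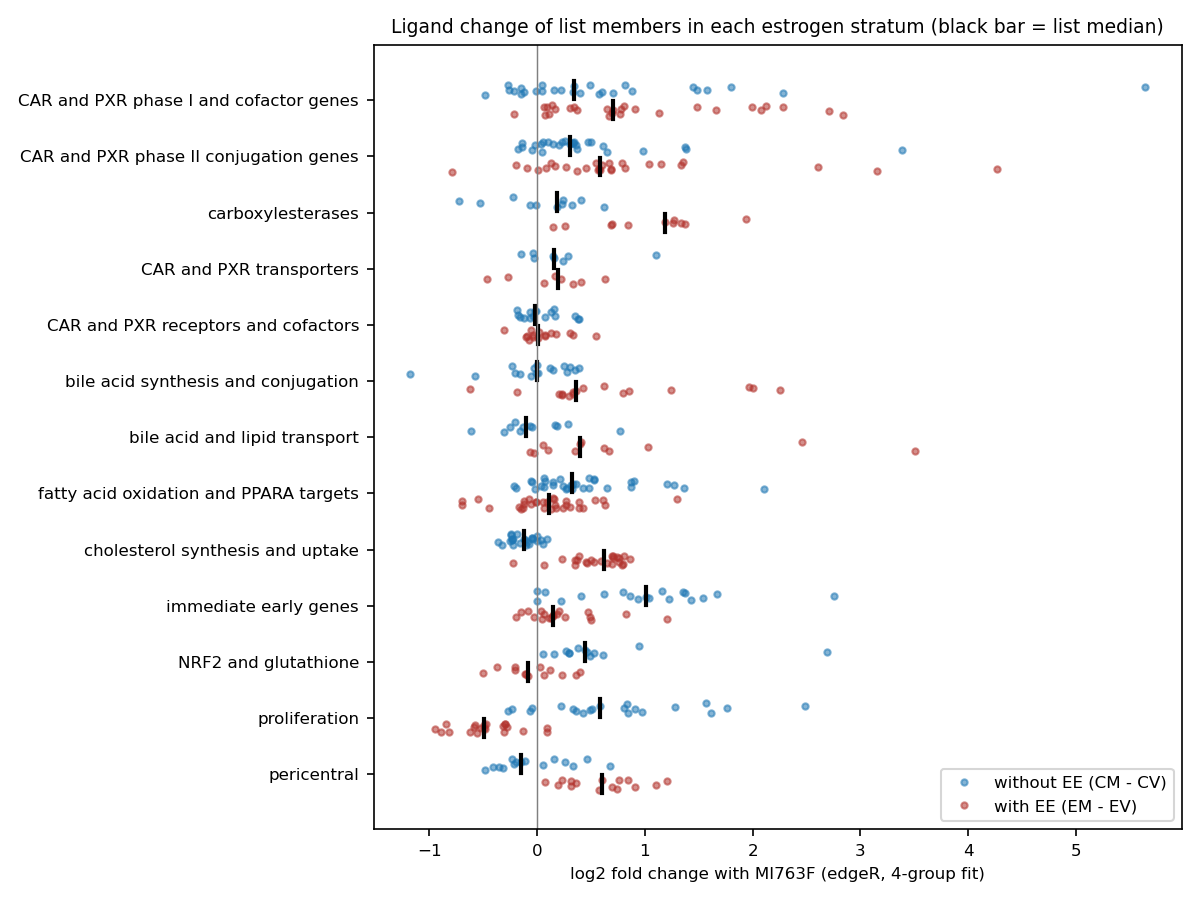
Log2 fold change with MI763F of each measured member of 13 gene lists, without EE (blue) and with EE (red), with a black bar at each median. Phase I and phase II genes and carboxylesterases have medians above 0 in both states. So do transporters, bile acid synthesis, fatty acid oxidation and immediate early genes. Cholesterol, proliferation, NRF2 and pericentral genes have medians of opposite sign, as do bile acid and lipid transport genes and, close to the zero line, receptors and cofactors.

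Some genes outside the calls had ligand libraries apart from the others in both EE states. Ligand and other libraries did not overlap in either state, upward, for 16 genes (0.124%) and, downward, for 15 (0.116%). The 16 include Cyp2b10, Cyp2c29, Cyp2c50 and Cyp3a16, and also Sult2a1 and Sult2a2, whose changes differed between the EE states. Another is Pctp, a phosphatidylcholine transfer protein. It was at 64.4, 69.1, 91.2 and 76.3 CPM in CV and at 112, 119.8, 102 and 98.2 CPM in CM. With EE it was at 23.7, 32.5, 31.3 and 34.2 CPM in EV and at 37.9, 41, 43.1 and 43.8 CPM in EM, and its changes of 0.52 and 0.45 were nearly equal (log2 fold change 0.48 ± 0.085 SE, adjusted p = 0.06). Dhrs4, a carbonyl and retinal reductase, gave 0.31 and 0.32 (0.32, adjusted p = 0.0629), and Eci1, an isomerase of fatty acid oxidation, by 0.27 and 0.29 (0.28, adjusted p = 0.0695). Gadd45b, a stress gene known as a CAR target, was at 59.3, 67, 104 and 68.1 CPM in CV and at 185, 199, 219.8 and 149 CPM in CM. With EE its libraries were at 10.8, 17.3, 20.6 and 5.52 CPM in EV and at 31.1, 36.3, 18.2 and 29.1 CPM in EM, which overlap (log2 fold change 1.21 ± 0.223 SE, adjusted p = 0.0695). Among the 15 lower genes, Mfn1, a mitochondrial fusion GTPase, was at 56.7, 54.8, 42.3 and 49.5 CPM in CV and at 36.3, 33.1, 25.5 and 39.4 CPM in CM. Under EE it stood at 38, 31.1, 40.3 and 32 CPM in EV and at 30.1, 27.2, 26.2 and 22.9 CPM in EM (log2 fold change -0.50 ± 0.0977 SE, adjusted p = 0.0718). Mup7, a male-predominant urinary protein gene, gave -2.09 and -0.86 without and with EE (-1.46, adjusted p = 0.273).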

How the data were processed

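Per the labels' protocols, poly(A) libraries were made from liver with the NEBNext Ultra kit. The submitters' processing notes name GRCm39, STAR and Salmon without roles. Annotation, counting and strand handling were not stated in those sources. What the authors deposited are estimated counts, whole numbers for 13006 genes, with totals that differ between libraries. Among 730 genes listed at 0 in a library (82.9% with a known length), the median smallest nonzero value was 101.5 below 150 bp and 1 above 4000 bp, so the values are not raw reads, and intervals for low genes are approximate. They were tested as counts. Symbols matched 12692 identifiers. At most 3.24% of genes were identical in any pair of libraries.

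Groups came from the sample titles. Counts were filtered with filterByExpr, scaled by TMM and modelled in R 4.3.3 by the robust glmQLFit of edgeR 4.0.16. The averaged effect is the ligand coefficient beside EE status (13 residual degrees of freedom). The interaction and the changes within each EE state come from 1 coefficient per group (12 residual degrees of freedom). P-values were Benjamini-Hochberg adjusted over all genes, and called below 0.05. SE is the absolute log2 fold change over the root of the test statistic. CPM is scaled by TMM. The additive fit had a biological coefficient of variation of 0.296.

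The comparison, its members and the 37 gene lists were chosen with earlier results of these data known. Named genes were called genes with mean log2 CPM of at least 1 and 1 sign in both EE states (up to 14 rises and 10 falls), up to 4 called genes per list, the 6 with the smallest interaction p, a fixed set and the human-format entries. Those 6 were read as called for the interaction. Any other gene was chosen after its values were seen, and some of the fixed set are not printed. Alternatives were RLE factors, library totals, filters, DESeq2 1.42.0, limma 3.58.1, a replicate block, left-out libraries, other designs and each EE state alone. The scripts were tested on simulated data. Figures used matplotlib 3.10.9.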

Additional observations from a re-analysis of the deposited data

Results flagged for a closer look

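Within groups of 4, 16 of 257 gene and group combinations had a library far from the other 3, where chance gives about 1 in 20. CM replicate 2 stood at 1691 CPM for Cyp2b10, against 764 to 919.8 in the rest of CM. CV replicate 1 was low for Slc10a1 (597 CPM) and Ppargc1a (2.35 CPM) and high for Slc22a26 (200.02 CPM). CV replicate 2 was low for Fos (2.14 CPM), CV replicate 3 for Sult2a1 (1288 CPM) and CV replicate 4 for Akr1b7 (11.4 CPM). In CM, replicate 3 was high for Ugt1a1 (932 CPM) and replicate 4 low for Cyb5a (2449.5 CPM). In EV, replicate 1 was high for Aldh1a7 (161 CPM), replicate 2 low for Sult2a4 (2.38 CPM), replicate 3 high for Akr1b7 (3.56 CPM) and replicate 4 high for Cyb5a (1267 CPM). In EM, replicate 1 was low for Sult2a4 (11.2 CPM), and replicate 2 was high for Cyp3a13 (104 CPM) and Dusp1 (48.6 CPM).

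The ligand change differed between mice with and without EE for 17 genes, by the interaction in edgeR. The log2 change with EE minus that without was 3.91 for Sult2a1, 2.28 for Sult2a2, 2.34 for Sult2a4, 2.89 for Sult2a5 and 2.63 for Sult2a6. It was 1.20 for Ces1c, 1.62 for Ces1d, 3.34 for Slc22a26 and 1.09 for Prodh2. The inflammasome sensor Nlrp6 gave 0.98, Ttc36 0.87, Gchfr 0.84 and the fucose mutarotase Fuom 0.97. The negative differences were -1.46 for St5, -0.75 for the myosin light chain Myl12b and -0.85 for the ubiquitin-like modifier Ufm1. The fitted -9.39 for Gm20075 depends on the prior count, since its CV libraries are all at 0.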

How the results depend on the processing

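RLE factors, no filter or 1 CPM in 8 libraries left 6 genes higher and 0 lower for the averaged effect. The counts higher and lower became 129 and 22 with DESeq2, 17 and 18 with limma voom, 47 and 45 with sample weights, 20 and 3 without CM replicate 2 and EM replicate 1, and 44 and 1 for the mean of both EE states. Without the EE covariate 0 were higher, with 215 higher and 170 lower at an unadjusted p under 0.05. CV and CM alone gave 1 and 1, and EV and EM alone 181 and 47. With 1 library left out, 1 to 11 were higher and 0 to 1 lower. For the interaction, library totals gave 12 and 14, the 1 CPM filter 17 and 7, DESeq2 298 and 152, voom 9 and 2, sample weights 132 and 27, and both libraries left out 124 and 33. With 1 library left out there were 7 to 157 and 2 to 51. The replicate block gave 15 genes higher and 0 lower for the averaged effect, where Cyp2c50 lost its call, and 67 and 12 for the interaction. Whether replicate numbers pair samples was not tested. Deviations from group means correlated between -0.102 and 0.15 for same-numbered libraries of different groups, and between -0.186 and 0.149 for the other pairs. Of 1676 alternative values for named genes, 1502 kept direction and side of the threshold, 58 lost and 105 gained a call, and 11 changed sign. Without the EE covariate those were Cyp2b9 (-0.031) and Cyp7a1 (-0.46). In CV and CM alone they were Cyp2b9 (-0.11), Ces1c (-0.0078), ENSG00000143257 (-0.063), Cyp7a1 (-1.17), Cyp39a1 (-0.00043), Cyp7b1 (0.31) and Slc10a1 (-0.15). In EV and EM alone they were ENSG00000144852 (-0.014) and St5 (-0.10). The fit of all libraries with 4 groups gave these genes the same signs within that EE state. Examples are Cyp7a1 (-1.18) and Slc10a1 (-0.16) without EE and St5 (-0.09) with EE. The cause of the sign changes without the EE covariate was not tested. Low genes limit precision: Cyp3a16 got no adjusted p from DESeq2.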

Other observations

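Among entries without a symbol, ENSMUSG00000119132 had 0 estimated counts in all 8 libraries without ligand. It had 19, 109, 95 and 193 in the CM libraries and 42, 0, 44 and 22 in EM, so 7 of 8 ligand libraries held counts (edgeR adjusted p = 0.0695). It was picked after its values were seen, and the name table gives no symbol for it.

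The additive fit and the mean of both EE states in the fit with 4 groups estimate nearly the same quantity but called 6 and 45 genes. The 45 include the 6. For Sult2a5 the averaged change was 1.66 with an adjusted p of 0.234 in the first and 1.71 with 4.92e-05 in the second, and for Ces1d 1.13 with 0.134 and 1.13 with 0.00112. Sult2a5 and Ces1d also had large interactions, which the additive fit by its construction leaves in the residual spread. Other gained genes had small interactions: -0.07 for Pctp, 0.02 for Eci1 and 0.01 for Dhrs4. Their adjusted p went from 0.06, 0.0695 and 0.0629 in the first fit to 0.024, 0.0365 and 0.0258 in the second. The cause of the gap between 6 and 45 genes was not tested.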
